A study of Mus musculus with 15 samples.

Results

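The genotype effect in the distal jejunum was read across 2 diets at once. Loss of Aster-B and Aster-C was compared with wild type in an additive model of genotype and diet, fitted to all 15 of the 15 libraries of the series, 7 from knockout (KO) and 8 from wild-type (WT) mice. Of 26844 genes, 14299 reached a normalised count of 10 in 3 or more libraries and were tested. All groups were male C57BL/6 mice aged 13 to 15 weeks on a low-cholesterol diet with 0.08% cholesterol. There were 4 WT and 3 KO libraries on that diet alone (control), and 4 WT and 4 KO libraries on the same diet with 0.01% ezetimibe. The KO is a global knockout and not one of the intestine alone, and the deleted exons are not named in the labels.

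Aster proteins, encoded by the Gramd1 genes, sit in the membrane of the endoplasmic reticulum and carry cholesterol to it from the plasma membrane. In enterocytes, cholesterol that enters through NPC1L1, the transporter that ezetimibe blocks, must reach the endoplasmic reticulum to be esterified and to be sensed. When cholesterol there is low, SREBP2 is released to the nucleus and raises the genes of cholesterol synthesis and uptake, and when oxysterols are high, liver X receptors (LXR) raise efflux genes such as Abca1.

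The libraries held 13855034 to 19307079 reads. Across genes, log2 levels in libraries of 1 group had pairwise r of 0.966 to 0.987. Of the variance 27.7% lay on the first principal component, which ran from KO ezetimibe replicate 3 to WT control replicate 4. The 13 enterocyte genes summed to 548080 to 845206 normalised counts per library; they mark enterocytes of the small intestine and do not tell the jejunum from its other segments. Among markers of tissue next to the gut wall, those of exocrine pancreas summed to 0 to 293 and those of red blood cells to 28.0 to 235. Adipocyte markers varied widely, with Fabp4 at 1.88 to 163 (median 7.45) normalised counts in WT and 30.8 to 262 (median 71.2) in KO libraries. Whether each replicate is its own mouse is not said in the labels, so the spread behind each p-value is that of these samples and may be technical.

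Averaged over the diets, genotype changed 556 of 14299 genes, which is 3.89% of those tested (limma, Benjamini-Hochberg adjusted p under 0.05, the rule for every call here unless another tool is named). In KO, 226 genes were higher (1.58%) and 330 were lower (2.31%). The genes that fell did so by more. Their median log2 fold change was −0.71, with 80 beyond 1 in size, against a median of 0.37 and 8 beyond 1 among those that rose. Over all tested genes the median was −0.002. A log2 fold change here is a difference of log2(normalised count + 1), which understates the change of low genes. Of the genes that rose, 221 code for proteins, as do 310 of those that fell.

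Few genes separated the genotypes completely. Every KO library lay above every WT library, whatever the diet, for 50 genes (0.35% of those tested), of which 39 were called. Every KO library lay below every WT library for 43 genes (0.301%), of which 42 were called. Compared within each diet, KO and WT libraries did not overlap on either diet for 99 genes that were higher (0.692%) and 127 that were lower (0.888%), 76 and 108 of them called.

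The effect was larger on the control diet for 131 of the 226 genes that rose and for 250 of the 330 that fell. The same count over all tested genes was not made, and the control diet had 3 KO libraries against 4 on ezetimibe. A model with 4 groups called 53 genes (0.371%) on the control diet and 1, Gramd1c, on ezetimibe (0.00699%). The first of these counts moved to 126, 4, 7 and 18 when WT control replicate 1, 2, 3 or 4 was left out, and to 3 and 4 when KO control replicate 1 or 3 was. No gene passed the test of the difference between the diets by limma or by edgeR, and the smallest limma adjusted p was 0.681. There were 1004 genes with an unadjusted p under 0.05 for that difference, and DESeq2 called 5. These were Fosb, an immediate early transcription factor, Naip6, an inflammasome receptor, Bco1, which cleaves beta-carotene, Ccne2, a cyclin of the S phase, and Kansl1, a chromatin regulator. For Fosb the log2 fold change was −1.65 on the control diet and 0.87 on ezetimibe. An unadjusted interaction p under 0.05 was found for 7 of the 226 genes called higher and 27 of the 330 called lower. Among all tested genes it was found for 1004 of 14299.

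The 2 diets share no library, so each can be asked about the other. Among 771 genes higher in KO on the control diet at an unadjusted p under 0.05, with only control-diet libraries in the fit, 598 (77.6%, exact binomial 95% interval 74.4% to 80.5%) were also higher on ezetimibe, where 49.7% of all tested genes were higher. Of 902 genes lower on the control diet, 747 (82.8%, 80.2% to 85.2%) were lower on ezetimibe, against 50.3% of all genes. Chosen on ezetimibe, 903 of 1312 higher genes (68.8%) and 1126 of 1394 lower genes (80.8%) had the same sign on the control diet. Sizes shrank on the other diet, from a median of −0.81 to −0.39 for the genes chosen as lower on the control diet and from 0.38 to 0.13 for those chosen as higher. Genes are not independent replicates, and the intervals cover counting only.

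**Figure D1:**
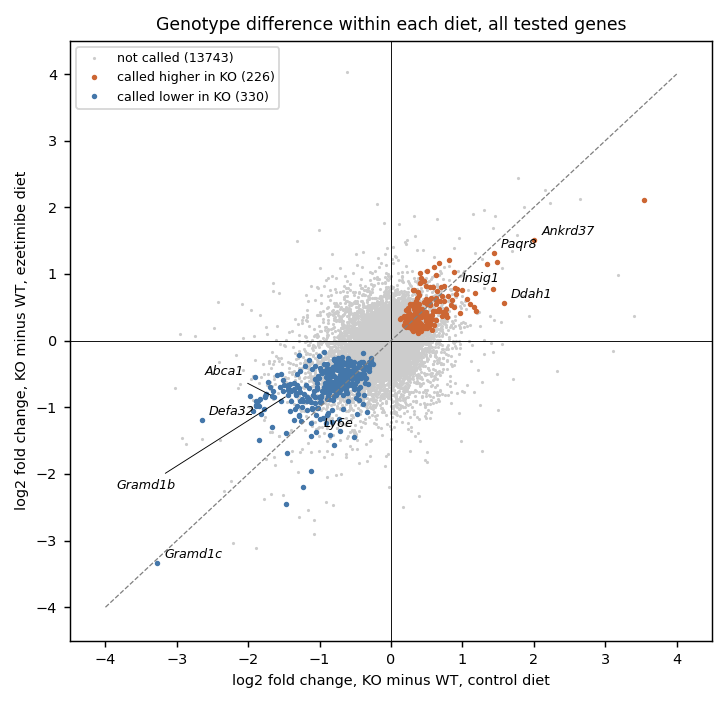
Log2 fold change of KO against WT on the control diet (x axis) and on ezetimibe (y axis) for the 14299 tested genes. Grey points were not called, orange points are the 226 genes called higher and blue points the 330 called lower in the additive model, and the dashed line marks equal effects. Gramd1c lies on the line, and Ddah1, Abca1 and Gramd1b lie on the side of the larger effect on the control diet.

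The targeted genes come first because they check the labels. Gramd1c (ENSMUSG00000036292, chromosome 16, 43980350 to 44063345, minus strand, positions on mm10 here and below) encodes Aster-C. It had 1287, 1059, 1845 and 1339 normalised counts in WT and 194, 119 and 115 in KO libraries on the control diet. On ezetimibe the values were 1243, 1106, 1102 and 1394 in WT and 71.8, 144, 120.3 and 156 in KO. No KO library came near a WT library on either diet, and the log2 fold change was −3.31 ± 0.163 (SE, limma adjusted p = 4.91e-09), about the same on control (−3.28) and ezetimibe (−3.34). Gramd1b encodes Aster-B (ENSMUSG00000040111, chromosome 9, 40293233 to 40531383, minus strand). Its KO libraries held more reads than those of Gramd1c, at 1247, 962 and 1229 on the control diet against 3784, 2274, 4046 and 2608 in WT. With ezetimibe there were 1763, 1754, 2086 and 1744 in KO against 2859, 2995, 3697 and 3412 in WT. All 7 KO libraries were below all 8 WT libraries, and the log2 fold change came to −1.10 ± 0.138 (SE, limma adjusted p = 0.00182). Reads outside the deleted exons, if any remain, would count toward these values.

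Gramd1a, which encodes Aster-A and was not targeted (ENSMUSG00000001248, chromosome 7, 31130127 to 31155896, minus strand), was also lower in KO. It had 282, 197, 284 and 209 normalised counts in WT and 104, 166 and 144 in KO on the control diet. On ezetimibe it had 226, 298, 298 and 230.3 in WT and 185, 184, 243 and 184 in KO, and 1 KO library, replicate 3, lay above 2 WT libraries of its diet. On the control diet the genotypes did not overlap. The log2 fold change was −0.59 ± 0.133 (SE, limma adjusted p = 0.0268). That call ended without KO control replicate 1 (0.0648), KO control replicate 3 (0.0631), WT ezetimibe replicate 2 (0.057) or KO ezetimibe replicate 4 (0.0557, limma adjusted p in each case). With a score of T and NK cell genes, described further on, as a covariate the log2 fold change of Gramd1a was −0.04. In that fit Gramd1b was at −0.80 and Gramd1c at −3.44. With a score of mitosis genes instead, Gramd1a was at −0.58. What lay behind this was not tested. Of the 15 tested genes of the Aster and sterol transfer list these 3 Gramd1 genes were called, all lower. Among all tested genes 2.31% were called lower. The list median was 0.04. Stard5, a cytosolic sterol carrier, had −0.75 and Gramd2 0.55, neither past the test (limma adjusted p = 0.0541 and 0.0525).

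Genes next to the deletions were counted separately. Within 5 Mb of Gramd1b 5 of 79 tested genes were called (6.33%, against 3.89% of all tested genes), Ift46 higher and Ccdc15, Cd3e, Cd3g and Jaml lower, with a median of −0.049. Within 5 Mb of Gramd1c 4 of 39 were called (10.3%, against the same 3.89%), Gm5485 higher and Tigit, Trat1 and Zdhhc23 lower, with a median of −0.25. Within 2 Mb the counts were 0 of 13 and 2 of 32 (Tigit and Zdhhc23). Zdhhc23, a palmitoyltransferase, lies on the same strand directly downstream of Gramd1c (chromosome 16, 43965033 to 43979791, minus strand). It had 517, 460.4, 556 and 575 normalised counts in WT and 355, 337 and 405 in KO on the control diet, and 504, 463, 547 and 468 against 359, 346, 420.3 and 468 on ezetimibe. KO libraries were mostly lower, with KO ezetimibe replicate 4 inside the WT range, and the log2 fold change was −0.42 ± 0.0840 (SE, limma adjusted p = 0.0236). Its call ended without KO control replicate 1 (0.058) or KO control replicate 3 (0.0513). Cd3e, Cd3g, Jaml, Tigit and Trat1 are genes of lymphocytes, a group described further on, and closeness to the deletion and membership of that group cannot be told apart for them. Without KO control replicate 1 none of these 9 neighbours was called (limma adjusted p between 0.058 and 0.105 for those other than Gm5485, which had 0.111).

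Insig1 rose in KO on both diets. Insig1 encodes the endoplasmic reticulum protein that holds back SREBP when sterol is present, and is itself an SREBP target (ENSMUSG00000045294, chromosome 5, 28071363 to 28078662, plus strand). It had 581, 583, 767 and 933 normalised counts in WT and 1374, 1359 and 1184 in KO on the control diet. On ezetimibe, where each genotype was higher than on the control diet, it had 1353, 1621, 1803 and 1568 in WT and 2721, 2479, 3013 and 2772 in KO. Within each diet every KO library was above every WT library, while KO on the control diet overlapped WT on ezetimibe. The log2 fold change was 0.84 ± 0.0990 (SE, limma adjusted p = 0.00136), with 0.89 on the control diet and 0.80 on ezetimibe.

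Of the 13 tested genes of sterol sensing and uptake, a list that holds Insig1, 12 were above 0 and the median was 0.26. Npc1l1, the importer itself, was not called, at 0.33 ± 0.131 (SE, limma adjusted p = 0.152). Its values were 13664 to 22690.4 (median 16676) in WT and 12626 to 35339.8 (median 25474) in KO libraries, and on ezetimibe alone each KO library was above each WT library. Without KO control replicate 2 it was called, at 0.42 (limma adjusted p = 0.0491). Fitted to the libraries of 1 diet, its limma adjusted p was 0.982 on the control diet and 0.137 on ezetimibe. In the authors' deposited comparison on ezetimibe Npc1l1 is listed at 0.59 (Wald test, adjusted p = 0.0413).

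Cholesterol synthesis followed the same direction with smaller steps. Of 20 enzymes, 3 rose and none fell, against 1.58% higher among all tested genes, and 18 of 20 were above 0 with a median of 0.28. Tm7sf2, a sterol reductase of the late pathway (chromosome 19, 6062821 to 6068373, minus strand), had 162, 173, 206 and 151 normalised counts in WT and 288, 252 and 284 in KO on the control diet, and 327, 257, 277 and 253 against 398, 343, 384 and 388 on ezetimibe. Msmo1, the methylsterol monooxygenase (chromosome 8, 64718139 to 64733792, minus strand), had 1137, 945, 1124 and 1201 in WT and 1245, 1558 and 1299.7 in KO on the control diet, and 2048, 1853, 2032 and 2126 against 2993, 2538, 3333 and 2997 on ezetimibe. For both enzymes KO and WT libraries of the same diet did not overlap. The log2 fold changes were 0.55 ± 0.0871 for Tm7sf2 (SE, limma adjusted p = 0.00896) and 0.44 ± 0.0795 for Msmo1 (SE, limma adjusted p = 0.0195). Hmgcs1, an early enzyme that makes HMG-CoA, had 0.53 ± 0.117 (SE, limma adjusted p = 0.0264). That call ended without KO control replicate 1, KO control replicate 3 or KO ezetimibe replicate 4 (0.0648, 0.0619 and 0.0571). Without WT control replicate 1, 6 of the 20 were called, and without KO control replicate 2, 5 were. The remaining 17 ranged from −0.08 (Dhcr7) to 0.45 (Fdft1).

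The list score, the mean log2(value + 1) of the 20 enzymes in a library, was 8.56 to 8.99 in WT and 9.08 to 9.31 in KO on the control diet. On ezetimibe it was 9.56 to 9.75 in WT and 9.75 to 10.07 in KO. The highest WT ezetimibe library and the lowest KO ezetimibe library differed by less than the rounding shown. Every KO library on the control diet stayed below every WT library on ezetimibe.

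Sequence just upstream of Insig1 and Hmgcs1 is shown because both genes rose and because CCAAT boxes, bound by NF-Y, commonly flank SREBP sites. The windows are the 250 bases before the RefSeq start (GRCm38.p6, the assembly of mm10), less any bases inside the GENCODE gene. They are chr5:28071162-28071362 for Insig1 and chr13:119690101-119690350 for Hmgcs1, both on the plus strand and written 5′ to 3′. Capitals mark CCAAT on either strand (ATTGG where reversed) and the E-box CACGTG.
Insig1: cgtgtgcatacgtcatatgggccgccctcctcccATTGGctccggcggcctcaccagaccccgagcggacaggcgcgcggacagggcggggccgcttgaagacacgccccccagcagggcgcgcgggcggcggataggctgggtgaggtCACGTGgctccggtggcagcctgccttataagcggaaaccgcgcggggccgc
Hmgcs1: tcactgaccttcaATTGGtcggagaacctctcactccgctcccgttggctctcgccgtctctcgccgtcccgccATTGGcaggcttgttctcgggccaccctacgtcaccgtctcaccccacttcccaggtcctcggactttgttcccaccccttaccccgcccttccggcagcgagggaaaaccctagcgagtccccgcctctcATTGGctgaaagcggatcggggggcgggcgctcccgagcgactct
Insig1 held 1 CCAAT and 1 CACGTG, and Hmgcs1 held 3 CCAAT and 0 CACGTG. Of 10421 tested genes with a window of 250 bases, 36.5% held CCAAT and 8.23% held CACGTG. A match of letters is a description and not a binding site. No other letters were searched for in these windows, so the 0 does not speak to other SREBP sites.

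Abca1, an LXR target and the cholesterol efflux pump (ENSMUSG00000015243, chromosome 4, 53030787 to 53159895, minus strand), had 2299, 1556, 1735 and 1446 normalised counts in WT and 601, 439 and 641 in KO on the control diet. On ezetimibe its level was far lower in all libraries, 213, 128, 196 and 196 in WT and 115, 84.7, 105 and 98.0 in KO. Genotypes did not overlap within either diet, and the log2 fold change was −1.21 ± 0.161 (SE, limma adjusted p = 0.00235). It was −1.64 on the control diet and −0.84 on ezetimibe, with an unadjusted interaction p of 0.00808 that did not survive adjustment over all genes. Of 13 LXR targets and receptors, Abca1 fell, Lpcat3 rose and the median was 0.01. Among all tested genes 2.31% were lower and 1.58% higher. Lpcat3, a phospholipid acyltransferase, had 0.29 ± 0.0684 (SE, limma adjusted p = 0.0311), and that call ended in 7 of 15 fits with 1 library left out. These were WT control replicate 2 or 4, KO control replicate 1 or 3, WT ezetimibe replicate 1 or 2 and KO ezetimibe replicate 4, with limma adjusted p of up to 0.0825. Abcg5 and Abcg8, the efflux pair of the brush border, were at 0.01 and −0.10 and Abcg1 was at −0.39, none of them called (limma adjusted p between 0.148 and 0.982).

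**Figure D2:**
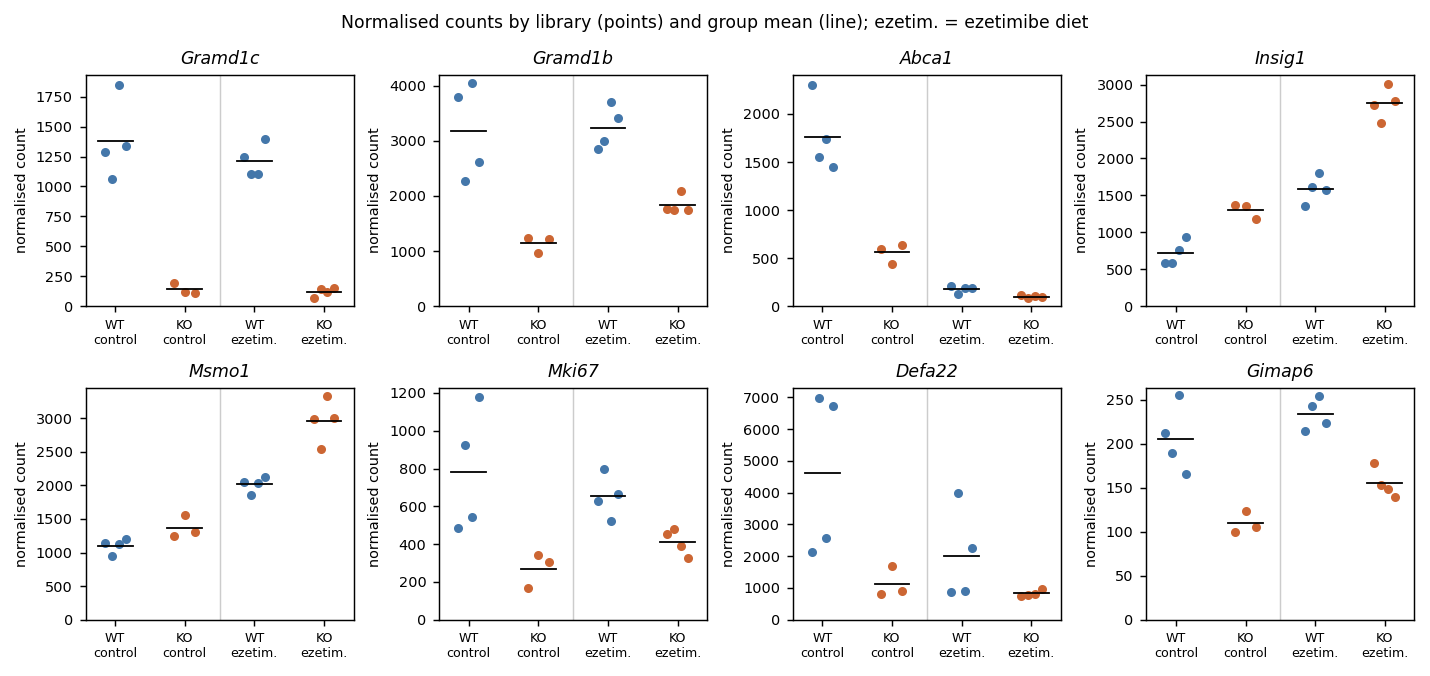
Normalised counts (y axis, from 0) of 8 genes in each of the 15 libraries, by genotype and diet (x axis), with a point per library and a line at the group mean. KO and WT points of the same diet do not overlap for Gramd1c, Gramd1b, Abca1, Insig1, Msmo1, Mki67 and Gimap6, and overlap for Defa22 on ezetimibe.

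Downstream steps of lipid handling showed little. Each count of calls here stands against 1.58% higher and 2.31% lower among all tested genes. Of 16 genes of esterification and chylomicron assembly 1 was called, Lipa, the lysosomal lipase that frees cholesterol from esters, at 0.41 ± 0.106 (SE, limma adjusted p = 0.0441). Its call held without WT control replicate 1, KO control replicate 2 or KO ezetimibe replicate 1 and was lost without any of the other 12 libraries, with limma adjusted p of up to 0.11. Soat2, the enterocyte enzyme that esterifies cholesterol, was at 0.15 (limma adjusted p = 0.45), and 15 of the 16 were above 0 with a median of 0.17. Of 11 genes of fatty acid synthesis none was called, with a median of −0.01. Fatty acid oxidation, including PPARα targets, was covered by 17 genes, among which Acadm, a mitochondrial dehydrogenase, was called at 0.27 ± 0.0723 (SE, limma adjusted p = 0.0464), a call that held when leaving out WT control replicate 1, WT ezetimibe replicate 1 or 3 or KO ezetimibe replicate 2 or 3, and was lost for each of the other 10. The median of that list was 0.06, with 0.28 on the control diet and −0.11 on ezetimibe.

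Ddah1 rose in KO, with a larger value on the control diet. It encodes an enzyme that breaks down methylated arginines, inhibitors of nitric oxide synthase (ENSMUSG00000028194, chromosome 3, 145758675 to 145894277, plus strand). It had 160.4, 212, 171 and 127 normalised counts in WT and 587, 446 and 459 in KO on the control diet, and 107, 143, 154 and 174 against 175, 179, 228 and 274 on ezetimibe. The genotypes did not overlap within either diet, although by little on ezetimibe. The log2 fold change was 1.03 ± 0.182 (SE, limma adjusted p = 0.0185). It was 1.58 on the control diet against 0.56 on ezetimibe, a difference with an unadjusted interaction p of 0.00215 that did not pass after adjustment. Ddah1 was the 1 called gene of 9 in the arginine and nitric oxide list, against 1.58% higher among all tested genes. The list median was 0.12.

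Efna1 and Ckb rose by steps of similar size on both diets. Efna1 encodes ephrin-A1, a ligand of Eph receptors, and had 863, 579, 657 and 614 normalised counts in WT and 1019, 1013 and 1077 in KO on the control diet. On ezetimibe it had 961, 833, 805 and 870.0 in WT and 1453, 1238, 1270.3 and 1356 in KO. All 7 KO libraries were above all 8 WT libraries, and the log2 fold change came to 0.62 ± 0.0788 (SE, limma adjusted p = 0.00182). Ckb, the brain-type creatine kinase, likewise had no overlap, at 1595 to 2562 (median 2142) in WT and 2599 to 4396 (median 3532) in KO libraries, and its log2 fold change was 0.80 ± 0.106 (SE, limma adjusted p = 0.00235). Cutal rose by 0.87 ± 0.128 (SE, limma adjusted p = 0.00587), from 31.6 to 71.8 (median 47.1) to 72.2 to 121 (median 79.1) normalised counts, again without overlap.

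The remaining genes among the 12 largest rises, counted over called genes with a descriptive symbol and a mean of at least 50 in either genotype, had wider spreads. Their log2 fold changes ran from 0.83 for Cyp2j6, a cytochrome P450, to 1.74 for Ankrd37, an ankyrin repeat protein. Ankrd37 had 75.4, 39.1, 11.3 and 6.11 normalised counts in WT and 99.0, 71.5 and 104 in KO on the control diet, and 128, 28.2, 53.8 and 41.8 against 193, 134, 148 and 146 on ezetimibe. WT control replicate 1 lay above KO control replicate 2, the genotypes did not overlap on ezetimibe, and the SE of the fold change was 0.417 (limma adjusted p = 0.0328). Paqr8, a membrane progestin receptor, had 77.3, 77.2, 49.5 and 48.9 in WT and 208, 142 and 164 in KO on the control diet, but 31.7, 38.5, 19.8 and 39.9 against 32.1, 65.4, 133 and 141 on ezetimibe, where KO replicate 1 sat among the WT libraries. Its log2 fold change was 1.37 ± 0.270 (SE, limma adjusted p = 0.0223). Slc6a3, the dopamine transporter, was at 1.07, Ces1g, a carboxylesterase, at 1.03, Enpp3, an ectonucleotidase, at 0.97 and Cyp4f16, another cytochrome P450, at 0.94. Tm4sf4, a membrane protein of the tetraspanin-like family, was at 0.93 and Npl, which breaks down sialic acid, at 0.84. Each of these 9 was called with all libraries (limma adjusted p between 0.0214 and 0.0328) and lost the call in 2 to 7 of the 15 fits with 1 library left out. Among those libraries was KO control replicate 3 for 8 of the 9, where limma adjusted p was 0.0508 to 0.0771, and for Tm4sf4 KO control replicate 1 (0.0764). The others lay among KO control replicate 1, WT ezetimibe replicate 2 and KO ezetimibe replicate 4, and for Ankrd37 and Tm4sf4 also WT control replicates 2, 3 and 4, WT ezetimibe replicate 4 and KO ezetimibe replicate 1.

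Genes of dividing cells were lower in KO. Of 20 genes of mitosis and the spindle 12 fell and none rose, against 2.31% lower among all tested genes, all 20 were below 0 and the median was −0.97. Mki67, which encodes the proliferation antigen Ki-67 (chromosome 7, 135689784 to 135716361, minus strand), had 483, 924, 546 and 1177 normalised counts in WT and 167, 341 and 304 in KO on the control diet. On ezetimibe it had 628, 799, 522 and 668 in WT and 456, 478, 390.0 and 329 in KO. All KO libraries were below all WT libraries, by a narrow margin, and the log2 fold change was −1.05 ± 0.216 (SE, limma adjusted p = 0.0252). Top2a, the topoisomerase that untangles sister chromatids (chromosome 11, 98992943 to 99024189, minus strand), had 371, 686, 402 and 1042 in WT and 158, 335 and 175 in KO on the control diet, and 461, 663, 395 and 551 against 308, 389, 267 and 263 on ezetimibe. KO and WT of the same diet did not overlap, and the log2 fold change was −1.06 ± 0.229 (SE, limma adjusted p = 0.0255). Knl1, a kinetochore scaffold, was at −1.10 ± 0.213, Aspm, of the spindle pole, at −1.15 ± 0.251 and Ccnb1, cyclin B1, at −0.97 ± 0.210 (SE, limma adjusted p = 0.0214, 0.0255 and 0.0255).

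In bulk tissue, fewer cells of a type and less RNA per cell cannot be told apart. Single libraries decided how many of these genes passed. Without KO control replicate 1 or 3 none of the 20 was called, without WT ezetimibe replicate 2 Knl1 alone was called and without KO ezetimibe replicate 4 Knl1 and Ccnb1 were. Leaving out WT control replicate 2 or 4 gave 6 and 7 calls, and leaving out WT ezetimibe replicate 4 gave 6. The median stayed between −1.07 and −0.80 in all 15 of these fits. The list score was 6.19 to 7.49 in WT and 4.96 to 6.23 in KO libraries, with KO control replicate 1 the lowest. DNA replication genes took the same direction, with 7 of 17 lower and none higher, against 2.31% lower among all tested genes. All 17 were below 0 and the median was −0.75. Prim1, the primase subunit, was at −0.91 ± 0.198 and Mcm6, of the replicative helicase, at −0.52 ± 0.117 (SE, limma adjusted p = 0.0255 and 0.0268), while Pcna, the polymerase clamp, was at −0.05 (limma adjusted p = 0.79). The 7 calls became 0 without KO control replicate 1 or 3, WT ezetimibe replicate 2 or KO ezetimibe replicate 4. They became 2 with WT control replicate 2 left out, 4 with WT control replicate 4 and 3 with WT ezetimibe replicate 4 left out, and 12 without WT control replicate 1.

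Promoters of Mki67 and Top2a are printed because CCAAT boxes and the cell cycle element TTTGAA or TTCGAA are well-known features of genes expressed in late cell cycle. The 250-base windows before the RefSeq start (GRCm38.p6) are chr7:135716380-135716629 and chr11:99024190-99024439, both on the minus strand and written 5′ to 3′ along the gene. Capitals mark these boxes and elements on either strand.
Mki67: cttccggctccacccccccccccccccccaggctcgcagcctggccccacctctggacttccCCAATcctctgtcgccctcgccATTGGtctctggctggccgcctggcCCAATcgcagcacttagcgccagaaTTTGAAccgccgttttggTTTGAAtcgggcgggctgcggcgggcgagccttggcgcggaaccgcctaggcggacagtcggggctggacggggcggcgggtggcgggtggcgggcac
Top2a: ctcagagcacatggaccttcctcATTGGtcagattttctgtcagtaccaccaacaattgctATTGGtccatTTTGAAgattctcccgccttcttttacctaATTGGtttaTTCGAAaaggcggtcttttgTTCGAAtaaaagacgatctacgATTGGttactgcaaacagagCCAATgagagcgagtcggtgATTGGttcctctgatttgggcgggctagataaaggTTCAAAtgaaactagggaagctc
Mki67 held 3 CCAAT and 2 of the cell cycle element and Top2a held 6 and 4. Of the 17 mitosis genes with a window 14 held CCAAT (82.4%) and 7 the cell cycle element (41.2%), and these 7 held both. Over 10421 tested genes the shares were 36.5%, 12.8% and 4.98%. Of 15 replication genes 11 held CCAAT (73.3%) and 2 the cell cycle element (13.3%). The windows stop at the start site, and letters absent from them say nothing about sequence further on.

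Products of Paneth cells, the antimicrobial cells at the crypt base, were among the largest falls. Among called genes with a mean of at least 50 normalised counts in either genotype, and leaving out gene models with no descriptive symbol, the 11 lowest after Gramd1c were 8 alpha-defensins, Mptx2, Mmp7 and Ly6e. Of 10 Paneth cell genes 4 fell and none rose, against 2.31% lower among all tested genes, all 10 were below 0 and the median was −1.13, with −1.68 on the control diet and −0.65 on ezetimibe. Defa22, an alpha-defensin (chromosome 8, 21162277 to 21163249, plus strand), had 2146, 6986, 2560.2 and 6727 normalised counts in WT and 812, 1682 and 914 in KO on the control diet. On ezetimibe it had 868, 3990.0, 901 and 2263 in WT and 749, 783, 809 and 981 in KO. WT libraries ranged from 868 to 6986, WT ezetimibe replicates 1 and 3 lay within the KO range, and the log2 fold change was −1.40 ± 0.348 (SE, limma adjusted p = 0.0369). Mmp7, the protease that activates alpha-defensins (chromosome 9, 7692090 to 7699585, plus strand), had 140.4, 502, 253 and 678 in WT and 97.4, 131 and 87.7 in KO on the control diet, and 120.4, 344, 101 and 239.5 against 83.5, 140.4, 87.6 and 95.9 on ezetimibe. Its log2 fold change was −1.22 ± 0.325 (SE, limma adjusted p = 0.0466), with the same overlap on ezetimibe. Mptx2, a pentraxin of the Paneth cell, was at −1.36 ± 0.341 and Defa32 at −1.87 ± 0.488 (SE, limma adjusted p = 0.038 and 0.0441). The remaining 6 named defensins had log2 fold changes of −1.46 to −1.24.

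Paneth cell calls also hung on single libraries. None of the 10 Paneth cell genes was called when leaving out WT control replicate 2, KO control replicate 1 or 3, WT ezetimibe replicate 2 or 4, or KO ezetimibe replicate 1 or 4. Leaving out WT control replicate 3 or 4 gave 1 call and leaving out KO ezetimibe replicate 3 gave 2, while 9 were called when WT control replicate 1 was left out and 10 when WT ezetimibe replicate 3 was. The median stayed between −1.32 and −0.98 throughout. Stem cell markers lie in the same crypts. None of the 12 was called (limma adjusted p of Olfm4, a crypt base marker, = 0.0527 at −1.23), though all 12 were below 0 with a median of −0.65, and Lgr5, the defining marker, was at −0.20 (limma adjusted p = 0.78). That count of 0 was not stable, since 5 were called lower without WT control replicate 1, 5 without KO control replicate 2, 3 without KO ezetimibe replicate 2 and 1 without WT ezetimibe replicate 3, and DESeq2 called 6. With the mitosis list score as a covariate, a fit added after seeing the data, the Paneth cell median was 0.02 and the stem cell median 0.006. With the score of T and NK cell genes, described below, as a covariate they were −1.92 and −1.07. Both scores themselves differed between the genotypes, and how much crypt each piece of jejunum held was not tested.

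Alpha-defensin copies are so alike that reads may be divided among them by the counting, and single members are uncertain. Upstream sequence shows the likeness. The 250 bases before the RefSeq starts of Defa21 and Defa22 were identical, as were those of Defa20 and Defa2. The pairs differed from each other at 5 of 250 bases, shown in capitals, in chr8:21025295-21025544 and chr8:21509008-21509257 (GRCm38.p6, plus strand).
Defa21: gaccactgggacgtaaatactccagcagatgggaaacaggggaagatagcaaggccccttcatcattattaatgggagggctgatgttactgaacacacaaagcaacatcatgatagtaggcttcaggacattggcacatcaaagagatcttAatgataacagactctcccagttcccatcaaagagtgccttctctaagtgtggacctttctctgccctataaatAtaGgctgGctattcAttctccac
Defa20: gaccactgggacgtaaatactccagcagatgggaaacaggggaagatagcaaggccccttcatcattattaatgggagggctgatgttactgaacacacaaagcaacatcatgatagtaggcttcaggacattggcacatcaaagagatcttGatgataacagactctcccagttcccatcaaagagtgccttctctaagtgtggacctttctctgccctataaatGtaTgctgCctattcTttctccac
Defa32 matched Defa20 at 28.0% of positions without gaps. Per library Defa21 followed Defa22 closely, at 2206, 7086, 2668 and 7355 in WT and 928, 1725 and 999 in KO on the control diet.

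Genes of T and NK cells formed a further group that was lower. Of 14 markers 8 fell (Cd3g, Ccl5, Cd7, Gzma, Itgae, Cd3e, Cd8a and Lck) and none rose, against 2.31% lower among all tested genes, all 14 were below 0 and the median was −0.58. Cd3g, a chain of the T cell receptor complex, had 374, 248, 314 and 205 normalised counts in WT and 159, 233 and 198 in KO on the control diet. On ezetimibe it had 479, 377, 374 and 332 in WT and 231, 236, 272 and 220.5 in KO. KO libraries lay below all WT libraries on ezetimibe and overlapped them on the control diet, and the log2 fold change was −0.61 ± 0.126 (SE, limma adjusted p = 0.0252). Itgae, the integrin that holds lymphocytes in the epithelium, was at −0.68 ± 0.168 and Gzma, a granzyme, at −0.56 ± 0.131 (SE, limma adjusted p = 0.0369 and 0.0304). The list score was 7.44 to 8.27 in WT and 6.82 to 7.82 in KO libraries. The 8 calls became 0 without KO control replicate 1 or 3, WT ezetimibe replicate 2 or KO ezetimibe replicate 4. They became 3 when WT ezetimibe replicate 1 was left out, and 4 when WT control replicate 3, WT ezetimibe replicate 3 or KO ezetimibe replicate 1 was. The median stayed between −0.64 and −0.53.

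None of the 15 genes that were called lower in each of the 15 fits without 1 library is a member of that list. Given here are 5 of them, picked after their values were seen. Gimap6, a GTPase of lymphocyte survival (chromosome 6, 48701582 to 48708225, minus strand), had 212, 189.8, 256 and 165 normalised counts in WT and 99.8, 124 and 105 in KO on the control diet, and 214, 243, 254 and 224 against 178, 153, 148 and 139.5 on ezetimibe. Each KO library was below each WT library of its diet, and the log2 fold change came to −0.73 ± 0.104 (SE, limma adjusted p = 0.00453). Jak3, the kinase of common gamma chain cytokine receptors, was at −0.75 ± 0.120 and Dock2, which drives lymphocyte migration, at −0.70 ± 0.123 (SE, limma adjusted p = 0.00896 and 0.0176). Klre1, a receptor of NK cells, was at −1.19 ± 0.222 and Ncf1, a subunit of the phagocyte NADPH oxidase, at −0.75 ± 0.117 (SE, limma adjusted p = 0.0206 and 0.00896).

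Ly6e, a membrane protein induced by interferon, was also among the 12 largest falls of called genes with a descriptive symbol and a mean of at least 50 in either genotype. It had 509.9, 559, 699 and 986 normalised counts in WT and 216, 414 and 369 in KO on the control diet, and 741, 1559.8, 1101 and 1330.5 against 572, 570.4, 386 and 296 on ezetimibe. Genotypes did not overlap within either diet, and the log2 fold change was −1.22 ± 0.203 (SE, limma adjusted p = 0.0126) and held in all 15 fits with 1 library left out. Of the 15 interferon response genes, a list that does not include Ly6e, 1 fell, against 2.31% lower among all tested genes. It was Bst2, a virus-tethering protein, at −0.70 ± 0.185 (SE, limma adjusted p = 0.0444). The 15 were all below 0 with a median of −0.41, while Irf7, a regulator of the response, was at −0.08 and not called. Bst2 was called when WT control replicate 1, KO control replicate 2, WT ezetimibe replicate 1 or KO ezetimibe replicate 1 or 2 was left out, and lost its call without any of the other 10, with limma adjusted p of up to 0.107.

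**Figure D3:**
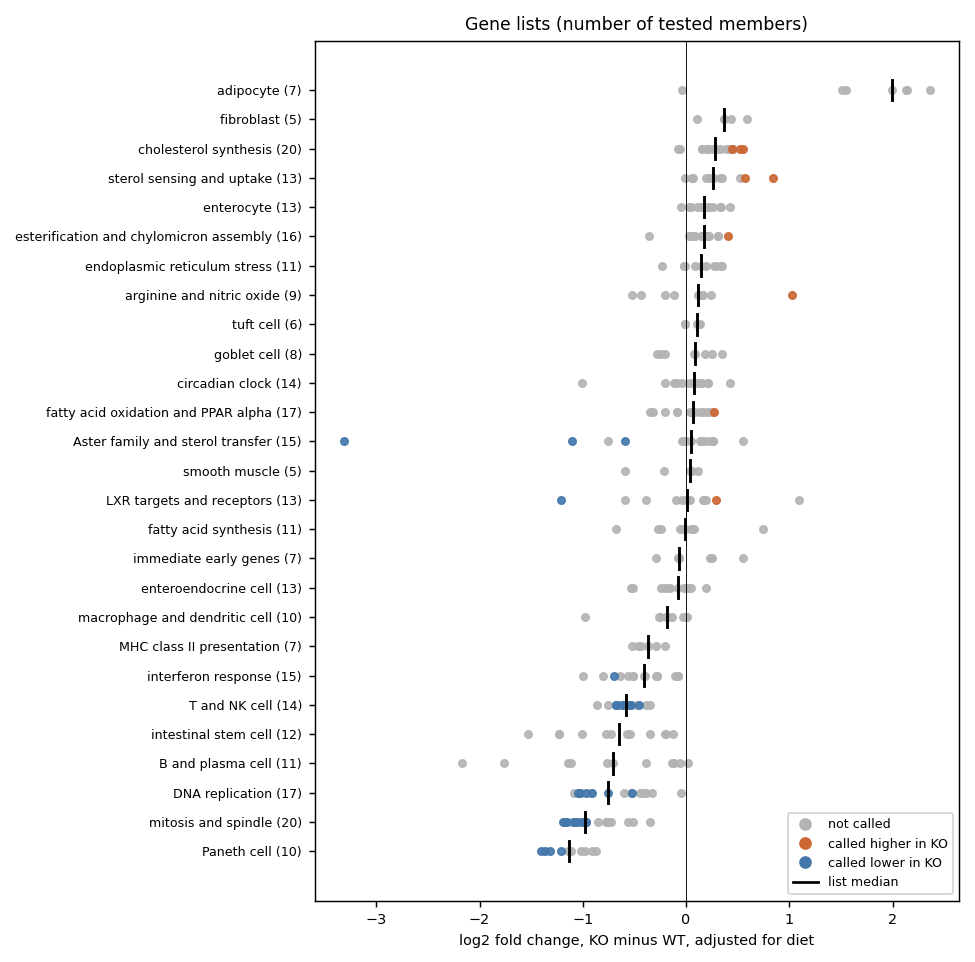
Log2 fold change of KO against WT adjusted for diet (x axis) for the tested members of 27 gene lists (y axis, with the number of members), ordered by their median (black bars). Orange members were called higher, blue members lower and grey members were not called. Paneth cell, mitosis, DNA replication and T and NK cell lists lie left of 0, and cholesterol synthesis lies right of 0.

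Other cell types gave no calls. None of the 13 enterocyte genes was called, 12 were above 0 and the median was 0.17, with 0.36 on ezetimibe and −0.04 on the control diet. The 8 goblet, 13 enteroendocrine and 6 tuft cell genes had medians of 0.08, −0.08 and 0.11 and no call. For enterocyte, goblet, enteroendocrine and tuft cell genes in that order, DESeq2 called 2, 2, 1 and 0. Leaving out 1 library gave at most 3, 1, 1 and 0 limma calls. B and plasma cell genes (11, median −0.71), MHC class II genes (7, −0.37) and macrophage and dendritic cell genes (10, −0.18) were not called either. Their medians on the control diet were −0.42, −0.90 and 0.26 in that order, and on ezetimibe −0.84, 0.04 and −0.63. Leaving out 1 library gave at most 3, 0 and 1 calls in these lists. Adipocyte genes had the largest median of any list, 1.99 over 7 genes, with 0 called. Their score was 2.23 to 6.12 in WT and 4.20 to 6.65 in KO libraries, so that WT control replicate 2 and WT ezetimibe replicate 1 lay in the KO range and the other 6 WT libraries below it. The markers summed to 2784 to 4155 normalised counts in WT and 2072 to 4329 in KO libraries. Fabp4 reached at most 163 in WT, so other members made up most of the WT sums, which say little about Fabp4. The part of adipocyte markers in the other results was not tested. Without WT ezetimibe replicate 1 the defining markers Fabp4 and Adipoq were called, at 2.91 and 2.63 (limma adjusted p = 0.0417 and 0.0499). Smooth muscle (5 genes), fibroblast (5), red blood cell (4), circadian clock (14), endoplasmic reticulum stress (11) and immediate early genes (7) had no calls, and their medians lay between −0.07 and 0.37.

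**Figure D4:**
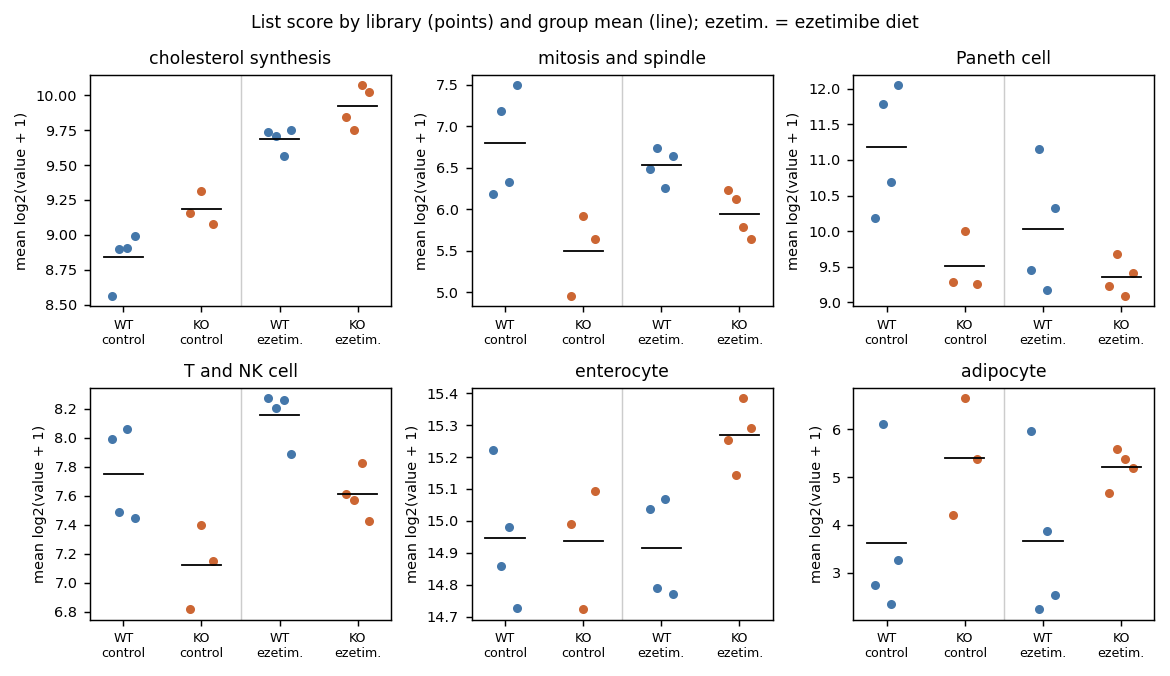
List score (y axis, mean log2(value + 1) of the tested genes of a list) in each library, by genotype and diet (x axis), for 6 lists, with a line at the group mean. Cholesterol synthesis is higher and mitosis lower in KO on each diet, Paneth cell scores overlap on ezetimibe, and adipocyte scores are high in WT control replicate 2 and WT ezetimibe replicate 1. The y axes differ and do not start at 0.

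How many genes passed hung on single libraries. With KO control replicate 1 left out 33 genes were called, with KO control replicate 3 left out 47, with WT ezetimibe replicate 2 left out 80 and with KO ezetimibe replicate 4 left out 95. Leaving out WT control replicate 2 gave 258, WT control replicate 4 gave 295 and WT ezetimibe replicate 4 gave 313. The count was 1209 with WT control replicate 1 left out and 913 with KO control replicate 2 left out. It was 399 to 540 without each of the other 6. Many calls moved only a short way past the threshold. Of the 556 genes, 443 kept an adjusted p under 0.1 without KO control replicate 1, 482 without KO control replicate 3, 532 without WT ezetimibe replicate 2, and all 556 without any 1 of the other 12.

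In each of the 15 fits 27 genes were called, 12 higher and 15 lower. Those higher were Insig1, Tm7sf2 and Msmo1 of sterol metabolism, Ddah1, Efna1, Ckb and Cutal, and 5 others. These were Aldh2, a mitochondrial aldehyde dehydrogenase (0.44), Ano10, an anoctamin (0.41), Gatd1 (0.48), Map1lc3b, the autophagosome protein LC3B (0.42), and Sqor, which oxidises sulfide (0.44). Map1lc3b had 688 to 843 (median 739) normalised counts in WT and 914 to 1204 (median 995) in KO libraries, without overlap. The 15 lower were Gramd1c, Gramd1b, Abca1, Ly6e, Gimap6, Jak3, Dock2, Klre1, Ncf1 and 6 others. The latter were Ankrd44 (−0.61), Ppp1r16b, a phosphatase subunit (−0.73), Celf2, an RNA-binding protein (−0.65), Kdm2b, a histone demethylase (−0.78), Mndal, of the interferon-inducible p200 family (−0.72), and Tnfrsf1b, a receptor of tumour necrosis factor (−0.68). No member of the mitosis, DNA replication, Paneth cell or T and NK cell lists was among the 27. In at least 12 of the fits 40 higher and 65 lower genes were called.

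**Figure D5:**
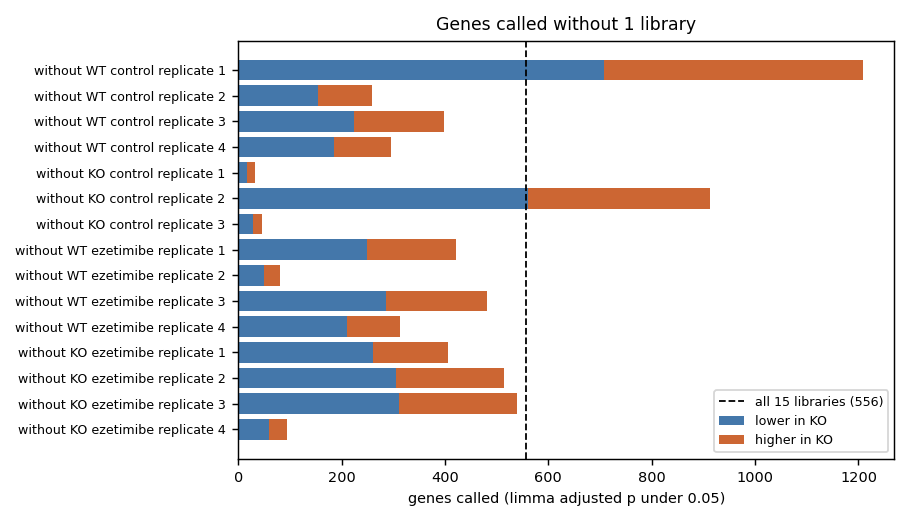
Number of genes called (x axis) when 1 library (y axis) is left out, split into genes lower (blue) and higher (orange) in KO, with a dashed line at the 556 called with all 15 libraries. The bars run from 33 without KO control replicate 1 to 1209 without WT control replicate 1.

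The authors' deposited tables hold their own comparisons within each diet, 424 genes on the control diet (194 higher) and 72 on ezetimibe (47 higher), from the same libraries. The authors' deposited table for the control diet lists Gramd1c at −3.27, Abca1 at −1.65, Gramd1b at −1.47, Mki67 at −1.53 and Defa22 at −2.02. The authors' deposited table for ezetimibe lists Gramd1c at −3.30, Abca1 at −0.86 and Gramd1b at −0.82, and Mki67 and Defa22 are not among its 72 genes. These tables do not give a comparison over both diets.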

How the data were processed

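RNA from frozen distal jejunum of 15 samples was sequenced after TRIzol extraction and library preparation with a kit the labels' protocols name as NEBNext Ultra II. FastQC, STAR 2.6.0c, DESeq2 and the mm10 build are named per the submitters' processing notes; none of the sources used here gives the read counter, its annotation or its use of strand, so a gene and an overlapping antisense partner cannot be told apart. The deposited matrix holds a normalised count signal per gene and library, made by the authors as gene counts divided by a DESeq2 size factor. Dividing each column by the value of 1 read gave whole reads for 100% of values within 0.001, which supplied the depths and the reads for edgeR and DESeq2. The authors' deposited tables hold, per the file headers, log2 fold changes with standard errors, linear ratios of KO over WT, p-values and adjusted p-values, and a test score (Wald statistic).

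Values were taken as log2(value + 1) for genes with at least 10 in at least 3 libraries and fitted with limma 3.58.1 (trend, R 4.3.3) on genotype and diet, with Benjamini-Hochberg adjustment over all 14299 genes and calls at an adjusted p under 0.05. A fit with 4 groups gave effects within each diet and the interaction. The design assumed raw counts or normalised values, and the normalised values decided for limma, with edgeR 4.0.16 and DESeq2 1.42.0 as alternatives on recovered reads. Scripts were tested on simulated data. Named genes were the Gramd1 genes and Npc1l1, the 12 highest and 12 lowest called genes with a mean of at least 50 in either genotype, up to 5 called members of each of 31 lists by smallest p (2 if none was called), called genes within 5 Mb of Gramd1b or Gramd1c, and the 5 smallest interaction p. The members and lists were chosen with earlier results of these data known. Genes called in all 15 fits without 1 library, and 4 further lists, were picked after values were seen. A few genes covered by these choices are left unreported here. Positions are from GENCODE on GRCm38, matched for 26825 of 26844 identifiers, and promoter windows from RefSeq were found for 10421 tested genes. Figures were drawn with matplotlib 3.10.9 (Python 3.11.15).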

Additional observations from a re-analysis of the deposited data

Results flagged for a closer look

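In each group of 4 libraries the highest or lowest value was compared with the others by Dixon's ratio at the 95% level, which chance passes in about 1 in 20 groups. Of 360 groups examined 21 passed, a share near that of chance, so a single flag below may be no more than that. The groups of 3 (KO control) were not examined.

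Adipocyte markers stood apart in 2 WT libraries. Fabp4 had 163 normalised counts in WT control replicate 2 and 133 in WT ezetimibe replicate 1, and Adipoq had 22.7 in WT control replicate 2, each far above the others of its group. KO ezetimibe replicate 3 was high for Gramd1a at 243, Gramd1b at 2086, Cyp4f16 at 18563 and Defa32 at 26.9, and for the endoplasmic reticulum stress score at 11.3. KO ezetimibe replicate 1 was high for Ift46 at 522. KO ezetimibe replicate 4 was low for the interferon response score at 8.22 and high for the tuft cell score at 7.14.

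Among WT ezetimibe libraries, replicate 1 was high for Tigit at 33.8 and low for the arginine and nitric oxide score at 7.58. Replicate 2 was high for Hmgcs1 at 3952. Replicate 3 was high for Enpp3 at 7523, low for Ccnb1 at 54.7 and low for the immediate early gene score at 9.33. Replicate 4 was low for Cyp2j6 at 3076, Cd3e at 178 and Gimap3 at 343, and for the T and NK cell score at 7.89.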

How the results depend on the processing

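The count of 556 genes called for genotype was 298 with no filter on low values, 136 after quantile normalisation, 1237 by DESeq2, 255 with no diet term and 3 from each diet alone. The alternatives within 1.5 times of it were edgeR (545), limma-voom (441), TMM scaling (536), pseudocounts of 0.5 and 5 (560 and 563), robust moderation (529), a mean of at least 50 (478), the mean of the within-diet effects (578) and a replicate block (819). The higher share of calls was 40.6%, but 51.3% with a mean of at least 50 and 50.7% after quantile normalisation. Leaving out 1 library gave 33 to 1209 calls. Chosen after seeing the data, leaving out WT control replicate 4 and KO ezetimibe replicate 3 together gave 302, and a circadian clock score as a covariate gave 1022. With the mitosis score as a covariate 1 gene was called (Gramd1c), and with the T and NK cell score 3 were (AA467197, Glt28d2 and Gramd1c). These 2 scores themselves differed between the genotypes. With the mitosis score and the T and NK cell score in turn, the log2 fold change of Insig1 went from 0.84 to 0.88 and 0.78, that of Abca1 from −1.21 to −1.30 and −1.06, and that of Gramd1b from −1.10 to −1.30 and −0.80. Other genes moved further. In the same order Ddah1 went from 1.03 to 0.59 and 0.76, and Ly6e from −1.22 to −0.75 and −1.21. Defa22 went from −1.40 to −0.25 and −2.10, and Gramd1a from −0.59 to −0.58 and −0.04. Mki67, a member of the mitosis list, went from −1.05 to −0.11 and −1.22.

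Fold changes that changed sign were Olfm4 with the mitosis score (0.0716), and with the T and NK cell score Ccl5 (0.0625), Cd7 (0.0423), Gzma (0.0819), Itgae (0.0577), Cd3e (0.0953) and Gimap7 (0.00433), most of them members of that list. Over all alternatives, values of named genes stayed on their side of the threshold in 2119 cases, lost the call in 898, gained it in 27 and changed sign in 7. The interaction had 5 calls by DESeq2 and 0 to 1 without 1 library (Naip6, without WT ezetimibe replicate 3). On the control diet DESeq2 called 442 genes and leaving out 1 library gave 3 to 126, and on ezetimibe DESeq2 called 86. Genes chosen at p under 0.01 had the same sign in the other diet for 85.9% (control, higher), 91.9% (control, lower), 74.3% (ezetimibe, higher) and 88.8% (ezetimibe, lower). After quantile normalisation the shares were 75.4%, 71.8% and 75.4% for control lower, ezetimibe higher and ezetimibe lower. Within 2 Mb, 0 genes near Gramd1b and 2 near Gramd1c were called. Apart from what each alternative's construction shows (fewer samples or genes), the cause was not tested.

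The replicate numbers did not meet the rule for pairing, that every same-numbered pair correlates at over 0.1. Deviations of 21 same-numbered pairs correlated with r of −0.24 to 0.33 (median 0.125, 12 over 0.1), against a median of −0.025 and 17 over 0.1 for 63 pairs with other numbers. A replicate block gave 819 calls, with 231 on the control diet and 6 on ezetimibe. With 7 against 8 libraries, calls near the threshold are not firm.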

Other observations

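Genes induced by hypoxia, a list drawn up after values were seen, were higher in KO. Of 23 tested 8 rose and none fell (Ankrd37, Pgk1, Ldha, P4ha1, Egln1, Egln3, Pfkl and Slc16a3), against 1.58% higher among all tested genes, 22 were above 0 and the median was 0.28. The list score was 9.10 to 9.45 in WT and 9.56 to 9.86 in KO libraries, with no overlap on the 2 diets together. Slc16a3, the lactate exporter, was at 0.78, P4ha1, a prolyl hydroxylase of collagen, at 0.70 and Pfkl, a phosphofructokinase, at 0.69. Pgk1 and Ldha, of glycolysis, were at 0.35 and 0.27, and Egln1 and Egln3, the oxygen-sensing hydroxylases, at 0.41 and 0.59. None of the 8 kept its call without KO control replicate 1 or KO control replicate 3.

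The GIMAP family of lymphocyte GTPases, also picked after values were seen, had 6 of 8 tested members lower (Gimap1, Gimap3, Gimap4, Gimap6, Gimap7 and Gimap8), against 2.31% lower among all tested genes, all 8 below 0 and a median of −0.58. Its score was 7.14 to 7.58 in WT and 6.39 to 7.13 in KO libraries. Without KO control replicate 1 or 3 Gimap6 alone of the 6 kept its call. Of 6 tested Schlafen genes, also picked after values were seen, 2 were lower, against 2.31% lower among all tested genes. These were Slfn2 (−0.80) and Slfn9 (−1.19), and the family median was −0.74. Slfn2 lost its call without KO control replicate 1 and Slfn9 without KO control replicate 1 or 3, WT ezetimibe replicate 2 or KO ezetimibe replicate 4.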
